A study of Prunus persica with 21 samples.

Results

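The 119 transcripts described here were the most abundant ones in untreated peach leaf blades. They are the genes whose CPM (the count of a gene divided by the total count of its library, times 1000000) averaged above 800 over the 3 untreated libraries, out of 27107 genes in the count table (0.439%). A leaf makes a large part of its messenger RNA from a small set of nuclear genes. Among them are those for the small subunit of Rubisco, for the light-harvesting proteins of the photosystems and for the enzymes of photorespiration, which work in the chloroplasts and peroxisomes of mesophyll cells. Because CPM is a share of a library, a gain of a few such transcripts lowers the CPM of all the others, so their levels are read together.

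Juvenile Prunus persica plants of the variety Big Top, raised in vitro and kept in a glasshouse, were sprayed on both leaf faces with PpPep1 at 100 nM or with PpPep2 at 1000 nM, peptides of peach of the plant elicitor peptide family, which signal damage to the plant's own immune receptors. Leaf blades freed of the central vein were frozen after 1, 24 and 48 h. With the leaves taken at time 0 (t0, which the labels call mock and the study calls untreated) this gave 7 groups of 3 biological replicates. No library analysed here came from leaves sprayed without peptide and sampled at 1, 24 or 48 h, so time after spraying and the peptide cannot be told apart in these libraries. The study did sample mock plants at 0, 1, 24 and 48 h for RT-qPCR and reported no significant change. That covered only a small set of genes picked to check the sequencing. The blades hold several cell types, and fewer cells of a type cannot be told from less RNA per cell.

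The 21 libraries had 33231519 to 59317510 counts, and every member had at least 14699 counts in every library, so counting error was small beside the spread between replicates. Names of 3 groups rest on a match: in 9 of the 21 columns the total and the number of genes holding 25% of the counts matched a library of another group than the column heading in the study's mapping summary, and these 9 were read by that match. They are the libraries of PpPep2 at 1 h, of PpPep2 at 24 h and of PpPep1 at 48 h. The 48 h libraries were run on flowcells of their own, and their codes in the study's mapping summary ended in AB instead of AA. The 48 h step cannot be told apart from that change. The 24 h libraries of PpPep1 and of PpPep2 were run on different flowcells. The t0 libraries used the same flowcells as those of PpPep2 at 24 h. Replicates 2 and 3 of both 1 h groups, PpPep1 at 24 h and the 48 h libraries used other flowcells than t0.

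Of the 119 members, all protein coding, 1 carried a name in the sources used here, PRUPE_7G260700 (ALDH11A3). In Arabidopsis that name stands for the cytosolic glyceraldehyde-3-phosphate dehydrogenase that makes NADPH from triose phosphate without forming ATP. The other 118 are given by their identifiers. Which of them encode Rubisco or light-harvesting proteins was therefore not determined. Of the members, 0 matched any of the 6 lists of functions (light reactions, carbon fixation, translation, stress and redox, housekeeping, transport) or of the 3 lists of leaf tissue markers (mesophyll, vascular, epidermis). In the whole table the lists of light reactions, carbon fixation, mesophyll and epidermis matched 0 genes, and the others 1 to 10. With so few names the absence of matches says nothing about the members, and the leaf label could not be checked by marker genes. No sequence of a member was at hand.

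Mean t0 levels of the members ran from 800.017 CPM for PRUPE_1G541100 to 26118.6 CPM for PRUPE_1G477200, with a median of 1668 CPM. There were 7 members above 10000 CPM and 47 above 2000 CPM. The threshold lay within a continuous range. The members just inside it were PRUPE_8G048900 (836.3 CPM), PRUPE_8G161600 (815.1 CPM) and PRUPE_1G541100, and the genes just outside were PRUPE_6G163400 (796.9 CPM), PRUPE_2G248900 (795.7 CPM) and PRUPE_6G309500 (794.5 CPM). By the first digit and letter of the locus number, members were spread over all 8 series of identifiers, with 31 of the 5883 genes of 1G, the largest series (0.527%), 21 of the 2897 of 4G (0.725%, the highest share) and 6 of the 3303 of 2G (0.182%, the lowest).

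Together the members held about 40% of all counts in each library. Their share was 40.7 ± 2.31% at t0 (SD, n = 3 in every group). In PpPep1 leaves it was 41.0 ± 0.442% at 1 h, 42.4 ± 1.63% at 24 h and 38.7 ± 1.29% at 48 h. In PpPep2 leaves it was 42.0 ± 0.489% at 1 h, 40.2 ± 0.927% at 24 h and 39.1 ± 1.11% at 48 h. The 3 t0 libraries alone spanned 38.8% to 43.3%, and the means of all 6 treated groups but PpPep1 at 48 h lay inside that range. The 12 highest members held 19.3 ± 1.06% at t0. They held most in PpPep2 leaves at 1 h (21.0 ± 1.04%) and least in PpPep1 leaves at 48 h (16.7 ± 1.16%). These shares follow from the choice of members on t0 and carry no test.

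**Figure D1:**
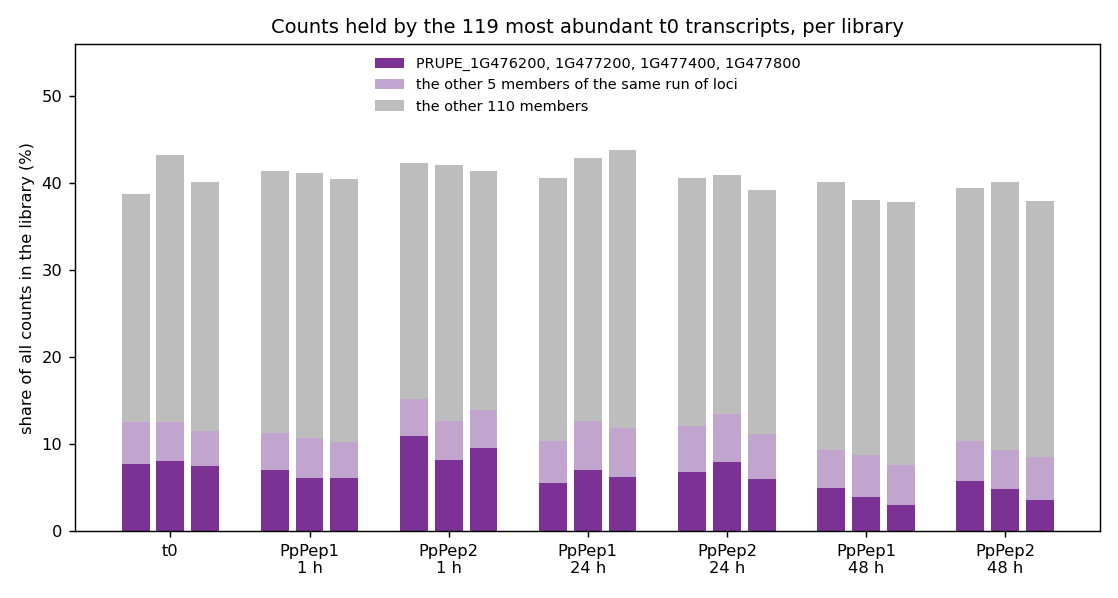
Share of all counts held by the members in each library (y axis, %), 1 bar per library in replicate order within each group. The dark part, 4 loci of the run PRUPE_1G475100 to PRUPE_1G477800, averaged 9.59% in PpPep2 leaves at 1 h and 4.03% in PpPep1 leaves at 48 h.

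Membership was kept over the time course by most genes. In the group means, 96 of the 119 members stayed above 800 CPM in all 7 groups, and 87 did so in all 21 libraries. The number of members with a group mean above 800 CPM was 113, 116 and 110 in PpPep1 leaves at 1, 24 and 48 h, and 105, 113 and 113 in PpPep2 leaves. Genes that were below the threshold at t0 and above it later numbered 9, 9 and 19 in PpPep1 leaves at 1, 24 and 48 h, and 7, 8 and 14 in PpPep2 leaves. The median coefficient of variation of a member within a group was 10.4% at t0 and between 4.10% and 9.70% in the 6 treated groups. For the other genes above 10 CPM at t0 it was 8.39% at t0 and between 4.73% and 8.37% in the treated groups. Single members varied far more, and at t0 the most variable was PRUPE_6G155800 at 2964, 1192 and 1187 CPM, where 1 library stood apart from the others.

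The highest gene of every library was 1 of the same 4 transcripts. PRUPE_3G157200 was the highest gene in 11 of the 21 libraries, PRUPE_1G475800 in 5, PRUPE_1G477200 in 3 and PRUPE_1G477800 in 2. PRUPE_3G157200 had 23053, 24228 and 26191 CPM at t0, 25625, 24870.1 and 27739 CPM in PpPep1 and 25391, 24483 and 27004 CPM in PpPep2 leaves at 1 h. At 24 h it had 25064, 23793 and 29860.5 CPM in PpPep1 and 30014, 24360.1 and 25138 CPM in PpPep2 leaves, and at 48 h 32331, 26623 and 29644 CPM in PpPep1 and 30561, 34214 and 32952 CPM in PpPep2 leaves. It led in all 6 libraries of 48 h, all of which lay above the highest t0 library. PRUPE_1G475800 changed least among the 12 highest members: its group means stayed between 23287 CPM (PpPep1, 1 h) and 27496 CPM (PpPep2, 24 h).

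**Figure D2:**
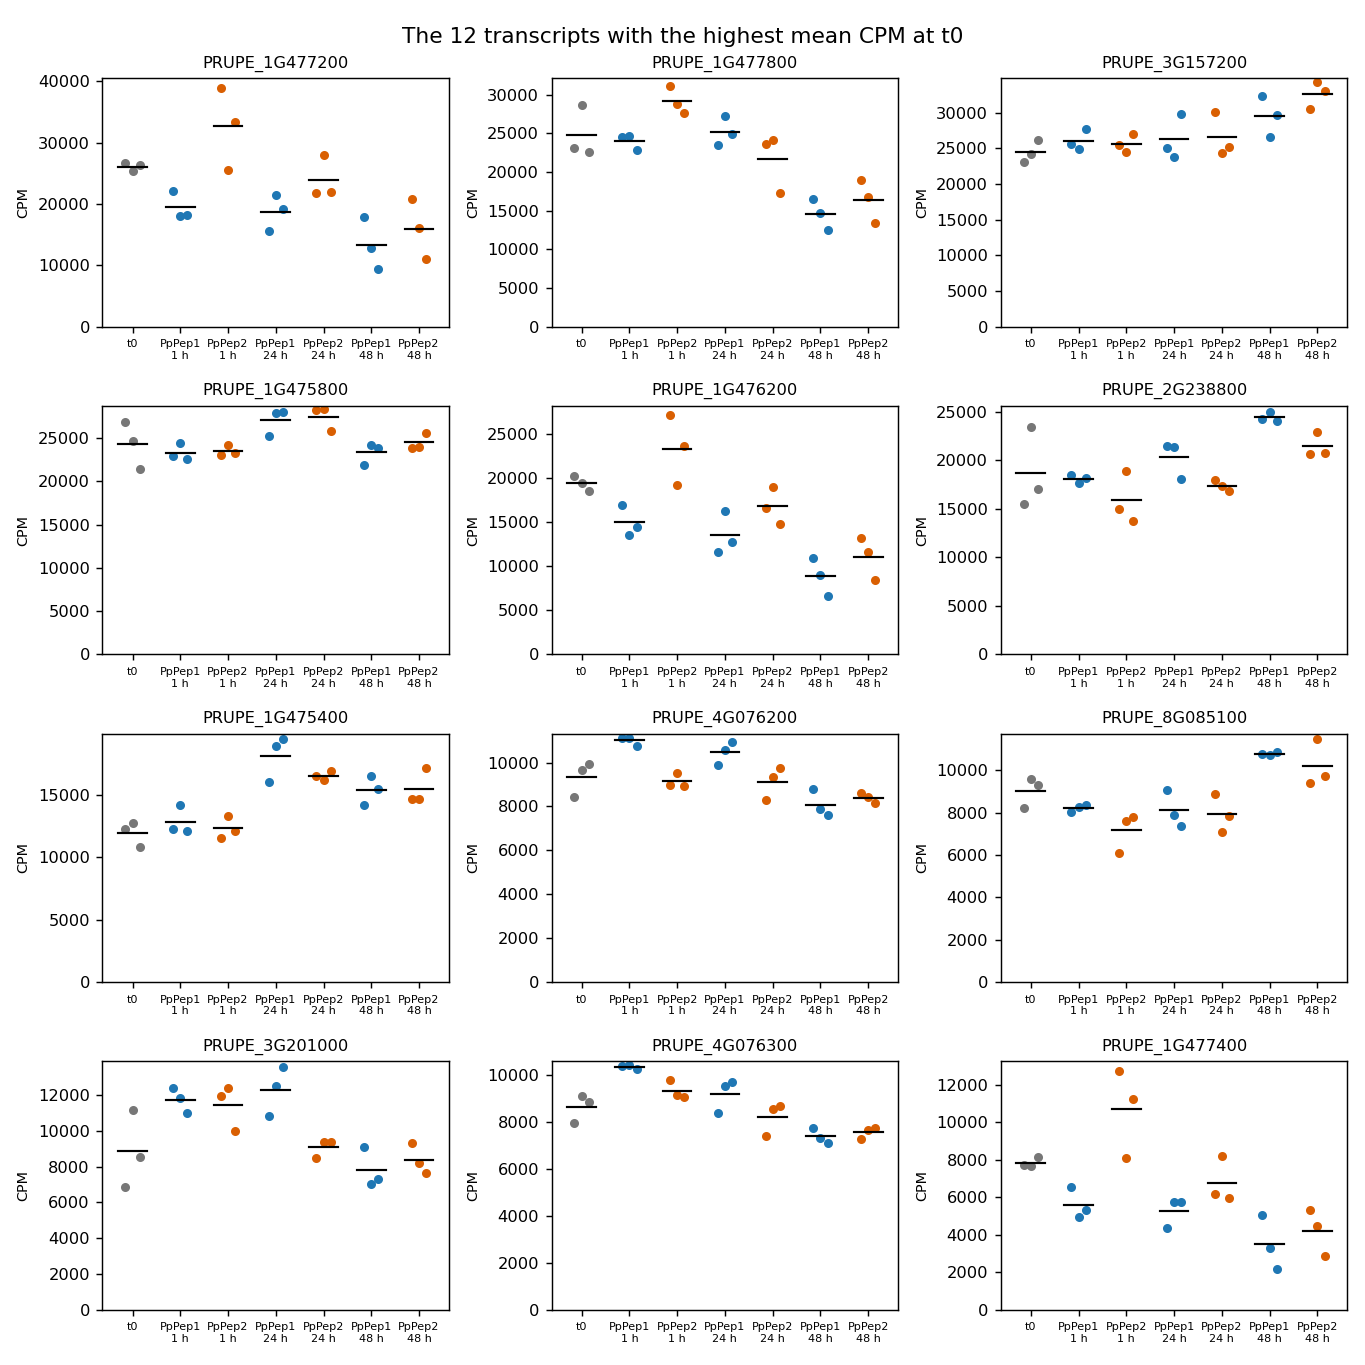
CPM (y axis, from 0) of the 12 members with the highest t0 mean, 1 panel each. Points are the 3 libraries of a group, bars their mean (grey t0, blue PpPep1, orange PpPep2). PRUPE_1G477200, PRUPE_1G476200 and PRUPE_1G477400 share a profile that is high in PpPep2 leaves at 1 h and low at 48 h, and PRUPE_3G157200 is highest at 48 h.

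Other high members had courses of their own. PRUPE_2G238800 had 24196, 25017 and 24071 CPM in PpPep1 and 20653, 22859.9 and 20733 CPM in PpPep2 leaves at 48 h, against 15495, 23428 and 16986 CPM at t0. Its PpPep1 libraries lay above t0 and its PpPep2 libraries overlapped t0. PRUPE_8G085100 had 10777 ± 67.2 CPM in PpPep1 and 10177 ± 1119.5 CPM in PpPep2 leaves at 48 h, against 9014 ± 727 CPM at t0. The adjacent pair PRUPE_4G076200 and PRUPE_4G076300 was highest in PpPep1 leaves at 1 h and lowest in PpPep1 leaves at 48 h. The first had 11123, 11144 and 10774 CPM in PpPep1 leaves at 1 h, against 8447, 9658 and 9926 CPM at t0, and the second 10375, 10422 and 10269 CPM, against 7937, 9090.5 and 8859.7 CPM at t0. PRUPE_3G201000 had 12397, 11832 and 11024 CPM in PpPep1 and 11945, 12415 and 10019 CPM in PpPep2 leaves at 1 h, against 6882, 11183 and 8568 CPM at t0, and both 1 h groups overlapped t0.

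A single run of neighbouring locus numbers held 9 of the members. These 9 lay among 28 consecutive rows of the table, from PRUPE_1G475100 to PRUPE_1G477800, and 6 of them were among the 12 highest members. The run held 12.2 ± 0.591% of all counts at t0, or 30.1% of the counts of all members. Of the 19 other genes in the run, 14 stayed below 1 CPM in every group mean and 2 were above 10 CPM at t0, the higher being PRUPE_1G477000 at 150 CPM. In all, 7 runs of members at most 10 rows apart held 21 of them, the other runs being pairs. The files do not say what the 9 genes encode. Neighbouring genes with near-identical copies would share reads, which the expected counts divide by a model, so the level of any 1 of them is uncertain where their sequences are alike.

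Members of the run did not follow a common course. A set of 4, grouped after their values were seen (PRUPE_1G476200, PRUPE_1G477200, PRUPE_1G477400 and PRUPE_1G477800), together held 7.82 ± 0.273% of counts at t0. In PpPep1 leaves they held 6.41 ± 0.528% at 1 h, 6.28 ± 0.775% at 24 h and 4.03 ± 0.993% at 48 h. In PpPep2 leaves they held 9.59 ± 1.42% at 1 h, 6.92 ± 0.979% at 24 h and 4.77 ± 1.13% at 48 h. The other 5 held 4.41 ± 0.393% at t0 and 4.37% to 5.38% in the treated groups. The remaining 110 members held 28.5 ± 2.20% at t0 and 28.0% to 30.8% later. The 4 genes ranged over more percentage points between group means than the other 110 members together. Since the 4 were grouped by their values and opposite changes cancel in the sum of the 110, this is not read as a result.

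PRUPE_1G477200, the highest gene at t0, had 26693, 25338 and 26325 CPM at t0. In PpPep1 leaves it had 22189, 17992 and 18248 CPM at 1 h, 15677, 21459 and 19118 CPM at 24 h and 17898, 12769 and 9375 CPM at 48 h. In PpPep2 leaves it had 38991, 25600.3 and 33429 CPM at 1 h, 21875, 27979.7 and 21904 CPM at 24 h and 20766, 16174 and 11044 CPM at 48 h. All 48 h libraries lay below all t0 libraries, and the replicates of 48 h were uneven, with a coefficient of variation of 32.1% in PpPep1 and 30.4% in PpPep2 leaves. PRUPE_1G477400 varied most of the 4, with 12744, 8117 and 11229 CPM in PpPep2 leaves at 1 h, 5059, 3276 and 2169 CPM in PpPep1 leaves at 48 h and 5344, 4444 and 2879 CPM in PpPep2 leaves at 48 h, against 7701, 7693 and 8166 CPM at t0. PRUPE_1G476200 followed the same order of groups, from 23381 ± 4010.3 CPM in PpPep2 leaves at 1 h to 8885 ± 2196 CPM in PpPep1 leaves at 48 h (SD, n = 3). PRUPE_1G475400 went the other way, with 15999, 18875 and 19452 CPM in PpPep1 and 16489, 16169.7 and 16930.1 CPM in PpPep2 leaves at 24 h, against 12249, 12715 and 10816 CPM at t0, without overlap.

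Against t0, most members stayed within 1.5-fold at every time. In PpPep1 leaves, 4 members (3.36%) had a group mean beyond 1.5-fold in either direction at 1 h, 5 (4.2%) at 24 h and 20 (16.8%) at 48 h, beside 8.09%, 5% and 13.3% of the 9952 genes above 10 CPM at t0. In PpPep2 leaves it was 7 members (5.88%) at 1 h, 3 (2.52%) at 24 h and 14 (11.8%) at 48 h, beside 9.17%, 2.74% and 8.48% of those genes. Since t0 chose the members, nothing is read from these counts and none was tested. The median ratio to t0 at 1 h was 1.04 in PpPep1 and 0.969 in PpPep2 leaves for the members, and 0.912 in PpPep1 and 0.901 in PpPep2 leaves for all genes above 10 CPM.

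In some members the 3 libraries of a treated group did not overlap those of t0. Only PpPep2 at 24 h shared all its flowcells with t0, so in the other groups flowcell cannot be told apart from treatment. In PpPep1 leaves they lay above t0 for 26 of the 119 members at 1 h, 12 at 24 h and 38 at 48 h. They did so for 12.7%, 9.97% and 25.6% of the 9952 genes above 10 CPM at t0. They lay below t0 for 21, 10 and 23 members, and for 38.3%, 20.8% and 27.2% of those 9952 genes. In PpPep2 leaves they lay above t0 for 5, 10 and 26 members, and for 9.64%, 11.7% and 20.8% of those 9952 genes. They lay below t0 for 23, 8 and 18 members, and for 34.8%, 9.3% and 21.5% of those genes.

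The members farthest from t0 differed between the times. At 1 h the lowest ratios were those of PRUPE_6G028600 in PpPep1 leaves (1137, 1200.4 and 1073 CPM, against 2154, 2024 and 2059 CPM at t0), of PRUPE_7G181400 in PpPep2 leaves (0.527 of t0) and of PRUPE_8G100600 in both (0.632 of t0 with PpPep1 and 0.582 with PpPep2). The highest were those of PRUPE_3G153100 (1.39) and PRUPE_3G201000 (1.32) in PpPep1 leaves and of PRUPE_3G004100 (1.68) and PRUPE_1G477400 (1.36) in PpPep2 leaves. None of these 1 h ratios reached 2-fold in either direction.

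At 24 h, PRUPE_6G155800 and PRUPE_7G248900 were lowest in both peptide groups, at 0.58 and 0.598 of t0 in PpPep1 and 0.454 and 0.628 in PpPep2 leaves. The 2 t0 libraries of PRUPE_6G155800 other than the one that stood apart (1192 and 1187 CPM) lay inside the range of its PpPep1 libraries at 24 h (1337, 979 and 785 CPM). The highest ratios were those of PRUPE_8G034100 (1.64) and PRUPE_1G475400 (1.52) in PpPep1 leaves, and of PRUPE_1G397900 (1.4) and PRUPE_1G475400 (1.39) in PpPep2 leaves. At 48 h the same members, PRUPE_8G025400 and PRUPE_1G477400, were lowest in both groups, at 0.382 and 0.446 of t0 in PpPep1 and 0.464 and 0.538 in PpPep2 leaves. PRUPE_4G019200 was high in both, at 2.18 times t0 in PpPep1 and 2.6 times t0 in PpPep2 leaves. PRUPE_7G181400 was the highest in PpPep1 leaves (2.35), and PRUPE_8G083400 came after PRUPE_4G019200 in PpPep2 leaves (1.7).

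Over all 7 groups, the highest group mean of a member was a median of 1.40 times its lowest. The range was under 1.5-fold for 70 members (58.8%) and over 2-fold for 14 (11.8%), against 64.3% and 13.1% of the genes above 10 CPM at t0. The widest range was that of PRUPE_7G181400, 4.47-fold, followed by PRUPE_4G019200 (3.86-fold), PRUPE_3G004100 (3.26-fold) and PRUPE_8G083400 (3.07-fold). The lowest mean was in PpPep2 leaves at 1 h for 38 members and in PpPep1 leaves at 48 h for 35, and the highest in PpPep1 leaves at 48 h for 36. How many of all genes had their lowest or highest mean in each group was not counted, so these counts are not read as a result about the members. The median ratio to t0 of all genes above 10 CPM was also lowest in PpPep2 leaves at 1 h (0.901).

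The steps between treated groups do not compare with t0 and could be tested, although the t0 libraries, with all others, entered the filter, the scaling and the estimate of the spread. A gene was called when edgeR's quasi-likelihood F test gave an adjusted p (Benjamini-Hochberg, over the 18586 genes tested) under 0.01 and its log2 fold change (log2FC, on counts scaled by TMM) was above 1 or below -1. All 119 members were tested in each comparison. The words rose and fell are kept for members whose adjusted p was under 0.01, whatever their log2FC.

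From 1 h to 24 h, 0 members were called with PpPep1, where 7.22% of all genes tested were called, and 0 with PpPep2, where 7.91% were. DESeq2 also called 0 in both. With 1 library left out there were 0 to 2 calls with PpPep2 (2 without its 24 h replicate 1, 1 without its 1 h replicate 2), and 0 with PpPep1. At an unadjusted p under 0.05 there were 25 members (21% of them, against 39.8% of all genes) with PpPep1 and 57 (47.9%, against 40%) with PpPep2. Without the limit on log2FC, an adjusted p under 0.01 was reached by 9 members with PpPep1, 8 higher and 1 lower at 24 h, and by 14 with PpPep2, 9 higher and 5 lower. With PpPep1 these are 7.56% of the members, beside 20.1% of all genes (7.94% higher, 12.1% lower), and with PpPep2 11.8% of the members, beside 20.5% of all genes (8.23% higher, 12.3% lower). These counts and their split moved with the fit. The shares of all genes under the other fits are not given here, so only the movement of the counts is read. By column totals alone there were 8 higher and 3 lower with PpPep1 and 17 higher and 1 lower with PpPep2, with RLE scaling 7 higher and 2 lower with PpPep1, and by DESeq2 10 higher and 3 lower with PpPep1 but 13 higher and 16 lower with PpPep2. Fitted on the compared groups only, the counts were 7 with PpPep1 and 10 with PpPep2. With 1 library left out they were 4 to 10 with PpPep1 (4 without 1 h replicate 3, 5 without 1 h replicate 1) and 8 to 14 with PpPep2 (8 without 1 h replicate 3 or 24 h replicate 3, 9 without 1 h replicate 1 or 24 h replicate 2). In 3 of the 6 such fits of PpPep2 no member was lower, those without 1 h replicate 3, 24 h replicate 2 or 24 h replicate 3. In the PpPep2 step, replicates 2 and 3 of 1 h and all replicates of 24 h were run on different flowcells, whose part cannot be told apart from time. Only replicate 1 of 1 h used the flowcells of both. In the PpPep2 step the members' median log2FC was 0.00 by column totals and -0.11 with TMM, and that of all genes 0.13 by column totals and 0.02 with TMM.

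The median standard error of a log2FC was 0.118 for the members and 0.121 for all genes in the PpPep1 step. By level at t0, the genes between 100 and 800 CPM were called at 3.75% and 3.98% in the 24 h step of PpPep1 and PpPep2, those between 10 and 100 CPM at 4.2% and 4.74%, and those up to 10 CPM at 10.8% and 11.8%. The median size of the log2FC of the members was 0.11 with PpPep1, against 0.15 for the genes between 100 and 800 CPM. With PpPep2 it was 0.22, against 0.16.

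**Figure D3:**
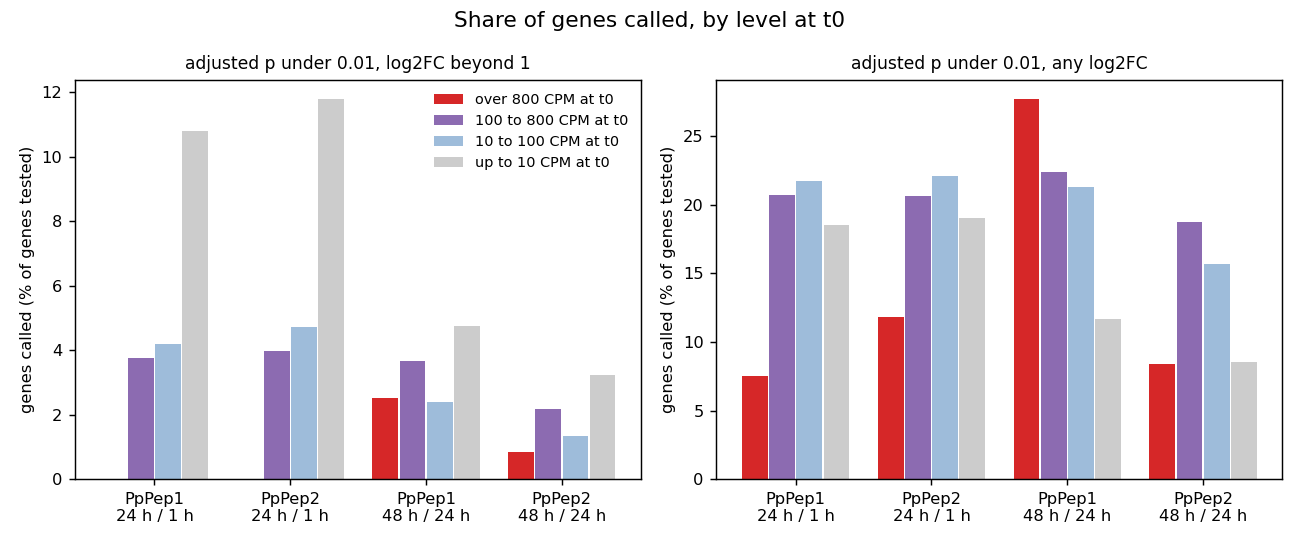
Percent of genes called (y axis) in each step between times, for genes grouped by mean CPM at t0. The left panel uses the full rule and the right panel drops the limit on log2FC. The members (red) had 0 calls in both 24 h steps on the left, and on the right 7.56% and 11.8% in these steps and 27.7% in the 48 h step of PpPep1.

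Members that rose from 1 h to 24 h included some that had been lowest against t0 at 1 h. The same 1 h libraries enter both comparisons, so a choice of the lowest 1 h levels by itself favours a rise from them. PRUPE_8G100600 had 1137, 977 and 908 CPM at 24 h, against 519, 629 and 544 CPM at 1 h, in PpPep1 leaves, a log2FC of 0.83 ± 0.12 (SE) with an adjusted p from edgeR of 1.58e-05. In PpPep2 leaves it had 821, 1022 and 995 CPM at 24 h, against 469, 614 and 477 CPM at 1 h (log2FC 0.75 ± 0.12, edgeR adjusted p = 3.86e-05). Its 24 h libraries lay above its 1 h libraries with both peptides, and its t0 level was 893 ± 61.8 CPM. PRUPE_7G181400 showed the largest log2FC of the PpPep2 step, 0.97 ± 0.16 (edgeR adjusted p = 7.03e-05), with 1159, 1499.9 and 1523 CPM at 24 h, against 501, 826 and 651 CPM at 1 h. PRUPE_8G034100 rose in the PpPep1 step to 1442, 1499.8 and 1417 CPM at 24 h, against 873, 1003 and 826 CPM at 1 h (log2FC 0.68 ± 0.11, edgeR adjusted p = 9.64e-05). PRUPE_5G059100, named here after its values were seen, was the only member with an adjusted p under 0.01 that was lower in the PpPep1 step (log2FC -0.61 ± 0.14).

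From 24 h to 48 h, 3 members were called with PpPep1, 1 higher and 2 lower (2.52%), where 3.59% of all genes were called, 1.79% higher and 1.8% lower. With PpPep2 there was 1, higher (0.84%), where 2.28% of all genes were called and 1.05% were higher. DESeq2 called 3 with PpPep1 and 1 with PpPep2. With 1 library left out there were 1 to 5 with PpPep1 (1 without its 24 h replicate 3, 5 without its 48 h replicate 1). Without the limit on log2FC there were 33 members with PpPep1 (12 higher, 21 lower, 27.7%, beside 16.9% of all genes, 9.14% higher and 7.8% lower) and 10 with PpPep2 (6 higher, 4 lower, 8.4%, beside 12.5% of all genes, 6.62% higher and 5.89% lower). Fitted on the compared groups only, these counts were 26 with PpPep1 and 3 with PpPep2. With 1 library left out they were 21 to 30 with PpPep1 (21 without 48 h replicate 2, and 21 without 48 h replicate 3) and 4 to 12 with PpPep2 (4 without 48 h replicate 2, 5 without 24 h replicate 2 or 3). By DESeq2 they were 44 (12 higher, 32 lower) with PpPep1 and 22 (16 higher, 6 lower) with PpPep2. The split of PpPep2 was 4 higher and 4 lower with RLE scaling. For these other fits the shares of all genes are not given here, so only the movement of the counts is read. Flowcells and the ending of the library codes changed at the same step, and their part in these results cannot be told apart from time.

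PRUPE_4G019200 was called with both peptides. In PpPep1 leaves it had 2013, 2184 and 2106 CPM at 48 h, against 1048, 1239 and 718 CPM at 24 h (log2FC 1.03 ± 0.21, edgeR adjusted p = 0.00121). Without replicate 3 of PpPep1 at 24 h, the lowest of its group, the log2FC was 0.83 and the call was lost. In PpPep2 leaves it had 2748, 2733 and 2054 CPM at 48 h, against 588, 663 and 703 CPM at 24 h (log2FC 2.00 ± 0.21, edgeR adjusted p = 5.39e-06). All 6 libraries of 48 h lay above all 15 others, the highest of which had 1239 CPM.

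PRUPE_3G004100 fell in PpPep1 leaves to 1797, 1406 and 1392 CPM at 48 h, against 3497, 4388 and 4926 CPM at 24 h (log2FC -1.52 ± 0.22, edgeR adjusted p = 4.73e-05). In PpPep2 leaves its log2FC was -0.61 ± 0.21 (edgeR adjusted p = 0.0438), and it had fallen there at 24 h, with 3056, 3148 and 3079 CPM at 24 h, against 5573, 4910.4 and 4519 CPM at 1 h (log2FC -0.80 ± 0.21, edgeR adjusted p = 0.00715). PRUPE_8G025400 fell in PpPep1 leaves to 619, 422 and 459 CPM at 48 h, against 1042, 917 and 1017 CPM at 24 h (log2FC -1.02 ± 0.24, edgeR adjusted p = 0.00358). That call was lost without any 1 of replicates 1 and 3 at 24 h and 2 and 3 at 48 h, and without TMM scaling, with log2FC between -1.01 and -0.90.

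The 4 calls of the 48 h steps rest on the match of columns to libraries. With the 9 columns read as headed, the log2FC in the PpPep1 step were 0.23 for PRUPE_3G004100, -0.32 for PRUPE_4G019200 and 0.51 for PRUPE_8G025400, each of opposite sign. In the PpPep2 step PRUPE_4G019200 had 0.25 and was not called.

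**Figure D4:**
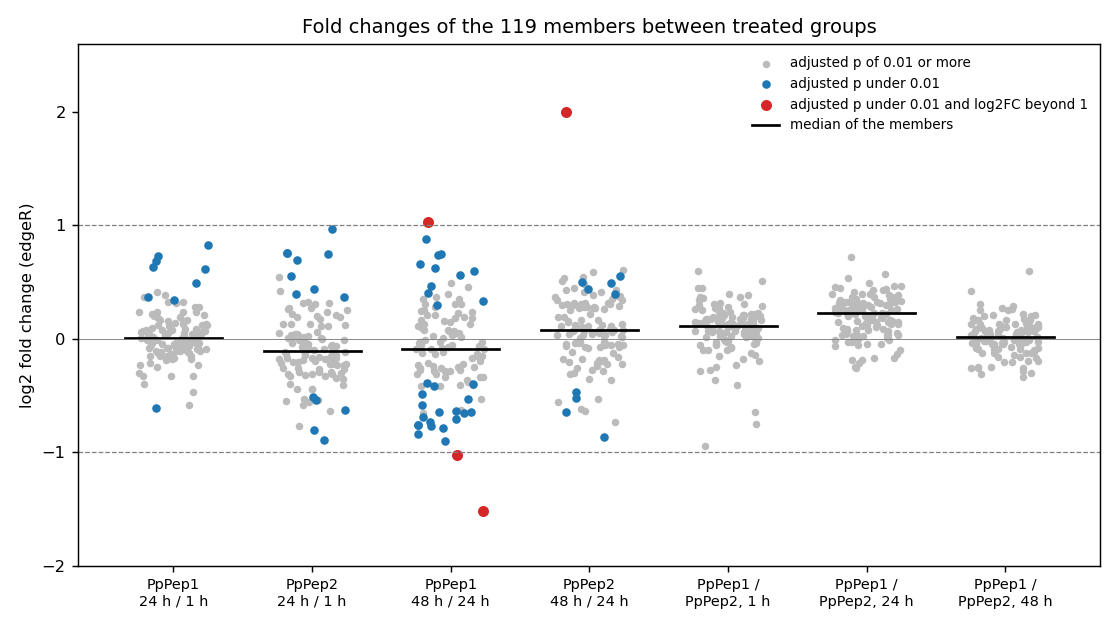
log2FC of the 119 members (y axis) in the 7 comparisons between treated groups (24 h over 1 h, 48 h over 24 h, PpPep1 over PpPep2). Each point is a member, the bar is the members' median and dashed lines mark 1 and -1. There are 4 red points, 3 in the 48 h step of PpPep1 and 1 in that of PpPep2.

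Below the limit on log2FC, PRUPE_1G476500 of the run of 9 fell in both 48 h steps. It had 874, 845 and 661 CPM at 48 h, against 1314, 1462 and 1540.5 CPM at 24 h, in PpPep1 leaves (log2FC -0.90 ± 0.12, edgeR adjusted p = 1.4e-05). In PpPep2 leaves it had 849, 774 and 863 CPM at 48 h, against 1423, 1766 and 1469 CPM at 24 h (log2FC -0.86 ± 0.12, edgeR adjusted p = 3.71e-05). Its more abundant neighbour PRUPE_1G477200, with less even replicates, had a log2FC of -0.53 ± 0.24 with PpPep1 (edgeR adjusted p = 0.107) and -0.53 ± 0.24 with PpPep2 (edgeR adjusted p = 0.119). PRUPE_1G477800 fell in the PpPep1 step (log2FC -0.83 ± 0.17, edgeR adjusted p = 0.000829). In the PpPep2 step its log2FC was -0.36 ± 0.16, with an edgeR adjusted p of 0.127.

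PRUPE_7G181400 and PRUPE_8G083400 had their lowest means at 1 h and their highest at 48 h. PRUPE_7G181400 had 1250.0 ± 204 CPM at t0, then 995 ± 21.5 CPM at 1 h, 1559.6 ± 286 CPM at 24 h and 2943 ± 217 CPM at 48 h in PpPep1 leaves, and 659 ± 163, 1394 ± 204 and 1965 ± 307 CPM in PpPep2 leaves (SD, n = 3 each). Its log2FC in the 48 h step was 0.88 ± 0.16 with PpPep1 (edgeR adjusted p = 0.000353) and 0.54 ± 0.16 with PpPep2 (edgeR adjusted p = 0.0176). PRUPE_8G083400 had 3618 ± 519 CPM at t0, 2771 ± 75.5, 4256 ± 617 and 7284 ± 452 CPM at 1, 24 and 48 h in PpPep1 leaves, and 2370.2 ± 192, 4333 ± 271 and 6161 ± 618 CPM in PpPep2 leaves.

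ALDH11A3 (PRUPE_7G260700), the only named member, had the same order of times with a smaller range. It had 1424, 1472 and 1542 CPM at t0. In PpPep1 leaves it had 1204, 1283 and 1221 CPM at 1 h, 1583, 1513 and 1449 CPM at 24 h and 1944, 1907 and 2018 CPM at 48 h, and in PpPep2 leaves 966, 1175 and 1068 CPM at 1 h, 1560.0, 1407 and 1593 CPM at 24 h and 1633, 1795 and 1719 CPM at 48 h. All 1 h libraries lay below and all 48 h libraries above those of t0. The step from 1 h to 24 h gave a log2FC of 0.29 ± 0.09 with PpPep1 (edgeR adjusted p = 0.0159) and 0.40 ± 0.09 with PpPep2 (edgeR adjusted p = 0.00126). The step to 48 h gave 0.33 ± 0.09 with PpPep1 (edgeR adjusted p = 0.00694) and 0.22 ± 0.09 with PpPep2 (edgeR adjusted p = 0.0668).

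**Figure D5:**
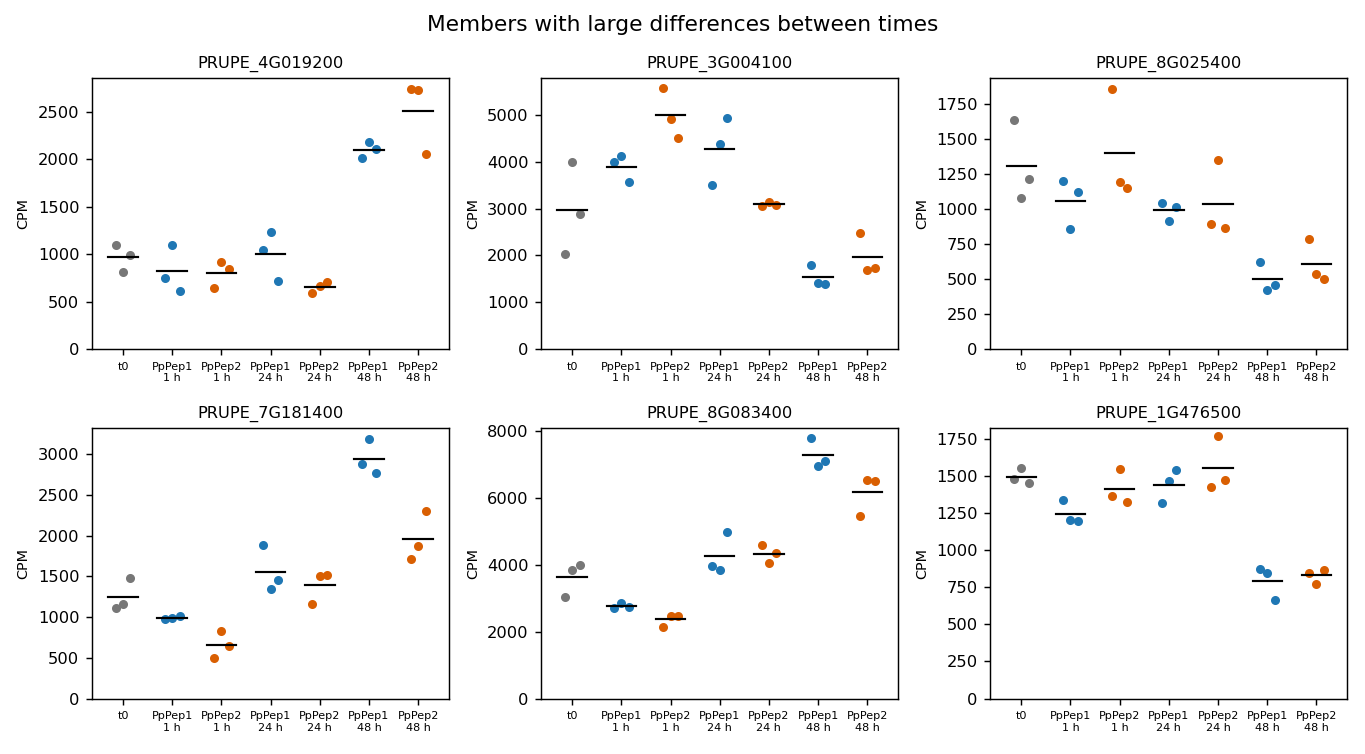
CPM (y axis, from 0) of the 3 called members, of PRUPE_7G181400 and PRUPE_8G083400, and of PRUPE_1G476500, by group (points are the 3 libraries, bars their mean). PRUPE_4G019200, PRUPE_7G181400 and PRUPE_8G083400 have their highest means at 48 h, and the other 3 their lowest.

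Between the peptides, which were given at different doses, 0 members were called at 1 h, 24 h or 48 h, by edgeR or DESeq2. Of all genes, 0.0161%, 0.0377% and 0.00538% were called by edgeR. Without the limit on log2FC, 0 members had an adjusted p under 0.01 by edgeR at any time. By DESeq2 there were 3 at 1 h, 5 at 24 h and 0 at 48 h. The shares of all genes by DESeq2 are not given here, so these counts are not read as a result about the members. At an unadjusted p under 0.05 there were 28, 50 and 9 members (23.5%, 42% and 7.56%, beside 13.3%, 15.3% and 10.4% of all genes). The median log2FC of the members, PpPep1 over PpPep2, was 0.12 at 1 h, 0.23 at 24 h and 0.01 at 48 h, with -0.01, 0.00 and 0.00 for all genes. Of the 119 members, 90 were higher in PpPep1 leaves at 1 h, 101 at 24 h and 66 at 48 h. With column totals alone the members' median at 24 h was 0.13 and that of all genes -0.10. At 24 h the peptides' libraries were on different flowcells, whose part cannot be told apart from the peptide.

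At 1 h the largest difference was that of PRUPE_1G477400, with 6538, 4924 and 5303 CPM in PpPep1 leaves, against 12744, 8117 and 11229 CPM in PpPep2 leaves. Its log2FC was -0.94 (approximate 95% interval -1.49 to -0.40, edgeR adjusted p = 0.176). PRUPE_1G477200 followed with -0.75 (-1.22 to -0.28, edgeR adjusted p = 0.195) and PRUPE_1G476200 with -0.64 (-1.04 to -0.25, edgeR adjusted p = 0.187). In all 3 the PpPep1 libraries lay below the PpPep2 libraries without overlap, yet the adjusted p missed the threshold. Their intervals, which are not adjusted for the number of genes, lay below 0 and reached past a 2-fold difference. At 24 h the largest difference was that of PRUPE_4G019200, 0.72 (0.32 to 1.13, edgeR adjusted p = 0.0971). At 48 h it was that of PRUPE_7G181400, 0.60 (0.29 to 0.91, edgeR adjusted p = 0.227), with 2876, 3186 and 2768 CPM in PpPep1 and 1715, 1873 and 2307 CPM in PpPep2 leaves. These members were picked for their size of difference. The lowest adjusted p of a member at 1 h went the other way from the 3 named there. It was that of PRUPE_1G498800, higher with PpPep1 without overlap (log2FC 0.51, edgeR adjusted p = 0.0581). This gene also had the lowest adjusted p of a member at 24 h, again higher with PpPep1 without overlap (log2FC 0.42, edgeR adjusted p = 0.0544).

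Whether the steps themselves differed between the peptides was tested by interaction contrasts. For the 24 h step edgeR called 0 members (0.00538% of all genes), DESeq2 called 0, and 15 members (12.6%, beside 8.66% of all genes) had an unadjusted p under 0.05. The median log2FC of this contrast, the PpPep1 step over the PpPep2 step, was 0.10 for the members, with 79 of 119 above 0, and 0.00 for all genes; by column totals alone it was -0.01 for the members and -0.10 for all genes. For the 48 h step edgeR called 0 members (0% of all genes), DESeq2 called 0, and 27 members (22.7%, beside 10.3% of all genes) had an unadjusted p under 0.05. Here the median was -0.15 for the members, with 94 of 119 below 0, and 0.00 for all genes; by column totals alone it was -0.06 for the members and 0.09 for all genes. Without the limit on log2FC, 0 members had an adjusted p under 0.01 by edgeR and 1 by DESeq2. Both contrasts use the 24 h libraries, which for PpPep1 and PpPep2 were on different flowcells. By the full rule no member was thus called as differing between the peptides in its 24 h or 48 h step, and the shift of the members as a whole was not tested.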

How the data were processed

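Per the study's methods, the authors aligned stranded poly-A read pairs with STAR 2.5.3a to Prunus persica NCBIv2 and deposited gene-level expected counts from RSEM 1.3.0 as whole-number counts, not normalized. How they became whole numbers, and whether duplicates were removed by molecular identifiers, is not given in the sources used here. Multi-mapped reads are divided by a model in RSEM. DESeq2 1.20.0 was the authors' test.

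CPM were counts over column totals. Members had a mean above 800 CPM over the 3 t0 libraries. All 21 columns were matched to libraries by total (0.95 to 0.99 of the read pairs) and by the number of genes holding 25% of counts; 12 matched as headed and 9 matched another group. For 18 columns 1 library fitted, and for 3 the heading decided between 2. Replicate numbers come from the matched libraries.

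Tests used edgeR 4.0.16 in R 4.3.3 (filterByExpr, TMM, robust quasi-likelihood fit of the 7 groups, 18586 genes) with Benjamini-Hochberg adjustment. The SE of a log2FC is its size over the square root of F. The 95% intervals are 1.96 SE either way, a normal approximation that is narrower than the F test implies. Contrasts with t0 were described and not tested, because t0 chose the members. Alternatives were RLE scaling, column totals, TMM factors from the other genes, no filter, a filter of 1 CPM in 3 or more libraries, DESeq2 1.42.0, a replicate block, fits of the compared groups only, columns read as headed, no limit on log2FC, and each library left out.

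The members, lists and comparisons were chosen with earlier results of these data known. Genes named are the 12 highest at t0, up to 3 called members per direction with non-overlapping libraries, the 3 genes on either side of 800 CPM, per treated group the 2 highest and 2 lowest ratios to t0, the members called in an interaction, and the highest 3 of each function list (0 found). PRUPE_1G476500, PRUPE_1G477000, PRUPE_1G498800, PRUPE_5G059100, PRUPE_7G260700 and the other genes of the run of neighbours were named after their values were seen.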

Additional observations from a re-analysis of the deposited data

How the results depend on the processing

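The number of members was between 96 and 152 under other thresholds (1000 and 600 CPM), 117 after TMM scaling, 107 with 800 CPM asked of each t0 library, 119 by the median (116 of them shared) and 120 to 121 without any 1 t0 library. Their t0 share of counts was 39.5% to 41.7% without any 1 t0 library.

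Without the limit on log2FC, the members called were 9 and 14 in the 24 h steps of PpPep1 and PpPep2 and 33 and 10 in the 48 h steps (13, 29, 44 and 22 by DESeq2, and 3 in the PpPep2 48 h step when only the compared groups were fitted). Shares of all genes under the other fits named here are not given, so only the movement of the counts is read. With column totals alone there was 1 call in the 24 h step of PpPep2, and PRUPE_8G025400 in the 48 h step of PpPep1 had a log2FC of -0.99. Leaving out 1 library gave 0 to 2 calls in the 24 h step of PpPep2 (2 without its 24 h replicate 1, 1 without its 1 h replicate 2), 1 to 5 in the 48 h step of PpPep1 (5 without its 48 h replicate 1, 1 without its 24 h replicate 3) and 0 in the 24 h step of PpPep1, which includes the fit without its 1 h replicate 1, the only library of that step from other flowcells.

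Reading the 9 columns as headed gave 2 calls in the 24 h step and 0 in the 48 h step of PpPep2, 3 between the peptides at 24 h, 10 at 48 h and 3 in the difference of the 24 h steps. The shares of all genes under that reading are not given here, so these counts are not read as a result about the members. In the 48 h step of PpPep1, PRUPE_3G004100 had a log2FC of 0.23, PRUPE_4G019200 of -0.32 and PRUPE_8G025400 of 0.51, each of opposite sign, and PRUPE_4G019200 had 0.25 in that of PpPep2.

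Same-numbered replicates were not treated as pairs, since no comparison had a correlation of deviations above 0.1 at every number. That limit cannot exclude a weak pairing: PpPep1 against PpPep2 at 1 h had 0.138, 0.067 and 0.182. With the replicate block the calls were 0 and 0 in the 24 h steps and 3 and 1 in the 48 h steps, as without it. RLE scaling, TMM factors from the other genes, both filters and DESeq2 also left these 4 numbers as they were. With 3 libraries a group, no sample could be tested as standing apart.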
